A study of Mus musculus with 12 samples.

Results

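The binding sites of MD(ND2bHLH)WCS, called WCS here, were compared with those of native NeuroD2 in P19 cells, a mouse embryonal carcinoma line. All 22462 sites of the WCS list and all 31458 sites of the NeuroD2 list were taken, 53920 of the 120275 sites in the series. A NeuroD2 site was called kept where a WCS site overlapped it by at least 1 base, and lacked otherwise. A WCS site was called matched where a NeuroD2 site overlapped it, and added otherwise. WCS is a mutant of a chimera, MD(ND2bHLH), in which MyoD carries the basic helix-loop-helix (bHLH) domain of NeuroD2. The labels do not say what the letters W, C and S stand for.

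Binding was measured by ChIP-seq, the sequencing of chromatin fragments brought down with an antibody to the protein, in cells transduced with each factor and in untransduced cells, moved to neuronal medium at 48 h. WCS was precipitated with the MyoD antibodies 6196 and 6975, and NeuroD2 with the NeuroD2 antibodies 1165 and 1240. Protein and antibody cannot be told apart in any difference given here between NeuroD2 and a protein precipitated with the MyoD antibodies. MyoD, the chimera, the WC mutant of the chimera and WCS shared the MyoD antibodies, and their 4 lists are set beside NeuroD2 where that matters. Each transduced group has 2 libraries and 1 list of sites, so there is no spread between replicates and no test between groups. The 95% intervals are exact Clopper-Pearson intervals of counts of sites. They cover counting error only, and neighbouring sites are not independent. The depth of the libraries is unknown. Sites of untransduced cells were not analysed here, and the shares have no background measured the same way.

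Both parents of WCS are bHLH transcription factors. Such factors pair through the helix-loop-helix with ubiquitous E proteins, and the basic region of each partner contacts one side of a short DNA element, the E-box CANNTG. MyoD directs skeletal muscle differentiation and NeuroD2 acts in developing neurons. The NeuroD family and MyoD differ in which central bases of the E-box they favour. The chimera from which WCS was made carries the bHLH domain of NeuroD2, and the labels do not say whether the mutations of WCS alter it.

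WCS held about as many NeuroD2 sites as it lacked, and most of its own sites lay on NeuroD2 sites. Of the NeuroD2 sites 16680 were kept, 53.0% (95% interval 52.5 to 53.6%), and 14778 were lacked, 47.0% (46.4 to 47.5%). Of the WCS sites 16602 were matched, 73.9% (73.3 to 74.5%), and 5860 were added, 26.1% (25.5 to 26.7%). The WCS list is the shorter, and with 1 WCS site for each NeuroD2 site it could have held at most 71.4% of the NeuroD2 list. With site centres required to lie at most 100 bases apart, 48.8% of NeuroD2 sites were kept. With the NeuroD2 list shortened to the 22462 sites of highest score, 63.4% of either list overlapped the other. In bases, 5.77 Mb lay in both lists, which is 47.9% of the NeuroD2 bases and 71.3% of the WCS bases.

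Among the other chimeric proteins, WC held 58.3% of the NeuroD2 sites (57.8 to 58.9%) and the chimera 23.7% (23.2 to 24.1%). MyoD, the protein into which the NeuroD2 domain was placed, held 20.4%. Of their own sites, 67.4% of the 27045 WC sites and 51.0% of the 14375 chimera sites lay on a NeuroD2 site. WCS shared 82.2% of its sites with WC. Both mutants together held 15112 NeuroD2 sites. A further 3240 were held by WC and not by WCS, and 1568 by WCS and not by WC. These shares move with the length of each list, and no difference between WCS and WC was tested.

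Where the lists overlapped, they marked the same places closely. The 16796 overlapping pairs had centres a median of 32.5 bp apart, and 91.4% lay within 100 bp of each other. In 99.6% of pairs the overlap covered at least 50% of the shorter site. Nearly all were pairs of 1 site with 1 site: 115 NeuroD2 sites had 2 or more WCS sites, and 154 WCS sites had 2 or more NeuroD2 sites, at most 7. The NeuroD2 site was the wider in 62.3% of pairs, with a median width of 385 bp against 358 bp for its WCS partner.

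The score that the authors give each site ranks sites within a list, and each list was divided by it into 5 equal bins, from bin 1, the lowest, to bin 5. Across the overlapping pairs the scores in both lists had a Spearman rho of 0.55, given as a description over pairs that share the same libraries. Of the 5531 pairs whose NeuroD2 site was in bin 5 of its list, 3058 had a WCS site in bin 5 of the WCS list and 191 one in bin 1. Of the 4497 pairs with a WCS site in bin 5, 77 had a NeuroD2 site in bin 1.

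The kept sites of highest score were present in at least 3 of the 5 lists, as were all but 7.23% of the kept NeuroD2 sites. On chromosome 6 from 116620147 to 116621790 (mm9, 1-based, as for all coordinates here) the score was infinite in the NeuroD2, WCS and WC lists, 118 in the chimera list and 188 in the MyoD list. The next NeuroD2 site, on chromosome 5 from 124656125 to 124657288, was infinite for NeuroD2 and had a score of 232 in the WCS list and 61.0 in the MyoD list. The third, on chromosome 1 from 172585425 to 172586481, had 291 in the WCS list, the highest finite score there. In both rankings infinite scores were ordered by width, the wider first. Ranked by WCS score, the site on chromosome 6 came first again. It was followed by chromosome 17 from 29816899 to 29817687, infinite in both lists and absent from the MyoD list. Next came chromosome 2 from 181747331 to 181748052, infinite for WCS and WC, with a score of 89.8 for NeuroD2 and no site of the chimera or MyoD.

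The NeuroD2 sites that WCS lacked were mainly those of low score. Kept NeuroD2 sites had a median score of 16.0 (quartiles 9.17 and 31.1), and lacked ones 7.64 (5.95 and 11.5). With the list divided into 10 equal bins by score, the share kept rose from each bin to the next, from 22.6% (21.1 to 24.1%) in the lowest to 91.4% (90.3 to 92.3%) in the highest. Lacked sites were also narrower, with a median width of 298 bp against 384 bp. Width went with score, and within the 5 bins by score the wider and narrower NeuroD2 sites differed less: in bin 3, 52.2% of sites at or above the median width of 341 bp were kept and 47.7% of the narrower ones.

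**Figure D1:**
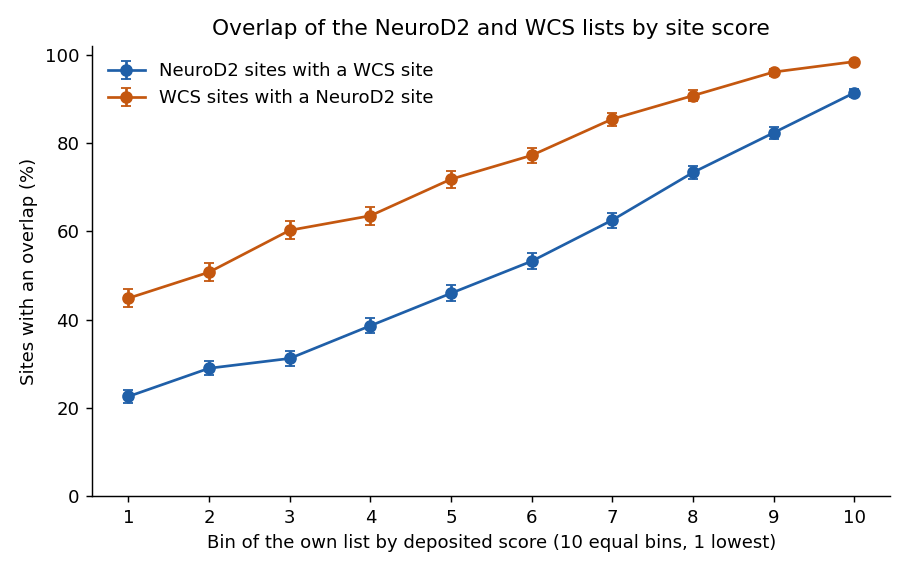
Share of NeuroD2 sites with a WCS site (blue) and of WCS sites with a NeuroD2 site (orange), in percent, by bin of the own list, cut into 10 equal bins on the deposited score; bars are exact 95% binomial intervals. The share kept rises from 22.6% to 91.4% and the share matched from 44.9% to 98.4%.

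The very top of the NeuroD2 list went against that trend. Of the 50 NeuroD2 sites of highest score WCS held 15, of the top 100 it held 60, and of the top 1000 it held 911. Of the 40 lacked sites among the top 100, 39 were in none of the 4 lists made with the MyoD antibodies. Of all lacked sites 70.5% were in none of them, and of all NeuroD2 sites, kept ones included, 33.1%. Dense windows, meaning windows of 100 kb in which some list had 10 or more sites, held 19 of the 40. They held 32 of the top 100 and 10.8% of all NeuroD2 sites. Outside dense windows WCS held 30 of the top 50 and 78 of the top 100. The WCS list did not show this: 48 of its top 50 and 97 of its top 100 sites were matched.

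The lacked sites of highest score were crowded into a few places. Of the 34 NeuroD2 sites with an infinite score WCS held 4, and the 30 that it lacked lay in 12 windows. A single window at the start of chromosome 9, from 3000001 to 3100000, held 16 of them. It had 30 NeuroD2 sites against 4 of WCS, 4 of WC, 1 of the chimera and 0 of MyoD. The widest were chromosome 9 from 3024474 to 3027974, at 3501 bp, from 3021932 to 3023919, and from 2999852 to 3001613. Each lay between 1694 and 9945 bases from the nearest WCS site.

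Another 4 infinite sites lay on chromosome 2 between 98502240 and 98507643, in a window without any site of the other 4 lists. Each of the remaining 10 was the only such site in its window, among them chromosome 15 from 74915805 to 74917630 and chromosome 12 from 75904745 to 75905643, where the nearest WCS sites were 129655 and 384776 bases away. On chromosome 18 from 3005119 to 3006530 a WCS site lay only 64 bases off. The share kept was also lower among the widest NeuroD2 sites. WCS held 82.1% of NeuroD2 sites of 601 to 1000 bp, 68.3% of those of 1001 to 2000 bp, and 14 of the 44 sites above 2000 bp. Of these 44, 35 were in dense windows, against 10.8% of the whole NeuroD2 list. The uniqueness of read mapping in these places was not tested.

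Strong sites were lacked elsewhere too. Lacked sites of high score were in the WC list more often than lacked sites in general. They were there less often than all strong NeuroD2 sites, most of which were kept. Lacked NeuroD2 sites with a score above 20, the infinite ones included, numbered 1233, 8.34% of all lacked sites, against 40.5% of the kept sites. They were spread over 1055 windows. Among all 6291 NeuroD2 sites of bin 5, with scores from 24.6, 5464 were kept and 5698 were in the WC list. Of the 1233 lacked sites, 707 (57.3%) were in no other list and 461 (37.4%) were in the WC list. Over all lacked sites, of any score, these shares were 70.5% and 21.9%. The 3 highest that WC held lay on chromosome 3 from 141854533 to 141855003, with scores of 121 for NeuroD2 and 129 for WC, on chromosome 11 from 3038168 to 3049026, with 120 and 105, and on chromosome 14 from 9119034 to 9119397, with 115 and 120.5. The nearest WCS site to the first was 127321 bases away, and to the third 11118 bases. The site on chromosome 11, at 10859 bp, lay in a dense window, as did 170 of the 1233.

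Most lacked NeuroD2 sites were absent from all lists made with the MyoD antibodies. Of the 14778 lacked sites, 10412 or 70.5% (69.7 to 71.2%) were in no other list, 3240 or 21.9% in the WC list, 1465 or 9.91% in the MyoD list and 1066 or 7.21% in the chimera list. Kept sites differed in each respect: 90.6% were in the WC list, 38.3% in the chimera list and 29.7% in the MyoD list, and 7.23% were in none of these 3. Only 310 lacked sites, 2.10%, were in the WC, chimera and MyoD lists together, against 21.1% of the kept sites. Their median score of 7.60 was near the 7.64 of all lacked sites.

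**Figure D2:**
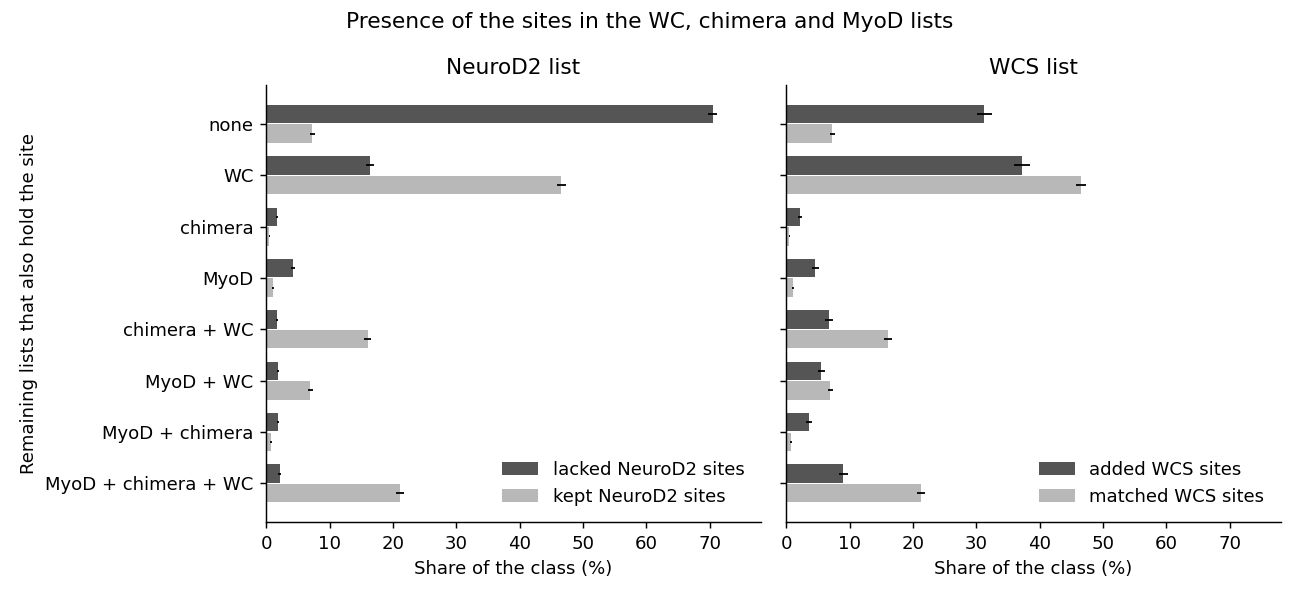
Share of each class of site, in percent, by which of the WC, chimera and MyoD lists also hold it; left, NeuroD2 sites lacked or kept by WCS, right, WCS sites added or matched; bars carry exact 95% binomial intervals. Lacked NeuroD2 sites are mostly in no other list (70.5%), whereas 37.3% of added WCS sites are in the WC list alone and 31.2% in none.

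A NeuroD2 site that MyoD also bound was kept more often, at every level of NeuroD2 score. WCS kept 77.2% of the 6424 NeuroD2 sites in the MyoD list (76.1 to 78.2%) and 46.8% of the other 25034 (46.2 to 47.4%). In bin 1 by NeuroD2 score the shares were 45.9% and 22.4%, in bin 3 they were 75.4% and 43.6%, and in bin 5 they were 96.3% and 82.8%. The chimera list split the NeuroD2 sites further, with 85.7% kept inside it and 42.9% outside. MyoD, the chimera and WC were precipitated with the same antibodies as WCS, so what these lists share by protein and by antibody cannot be told apart.

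Of the lacked sites that only MyoD also held, 614 in all, the highest NeuroD2 scores were 51.8 for the site at 26396745 to 26397195 of chromosome 2, 49.6 for 45796927 to 45797345 of chromosome 16 and 39.7 for 49940444 to 49940906 of chromosome 6. Their MyoD scores were 10.4, 14.0 and 9.72, where the median of the MyoD list was 10.7. These places were thus in the lists of both parents and in none of the chimeric proteins' lists.

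Few lacked sites were near misses. The nearest WCS site was a median of 19697 bases away (quartiles 5420 and 60252). Within 500 bases of a WCS site lay 762 lacked sites (5.16%), within 1000 bases 1304 (8.82%) and within 10000 bases 5245 (35.5%). For 135 of the 762 the nearest WCS site was itself an added one, and for the rest it was a matched one. By windows of 100 kb, 10348 lacked sites lay in a window with some WCS site and 4430 in one with none.

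The sites that WCS added were weak and narrow. Added sites had a median score of 6.92 (quartiles 5.75 and 9.12) and a median width of 266 bp, against 12.3 (7.72 and 23.3) and 356 bp for matched WCS sites. In the lowest of 10 bins of the WCS list by score 44.9% of sites were matched, and in the highest 98.4% (97.8 to 98.9%). The 128 WCS sites of 1001 to 2000 bp and the 24 wider ones were all matched. Of the 44 WCS sites narrower than any MyoD site, 2 were matched.

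**Figure D3:**
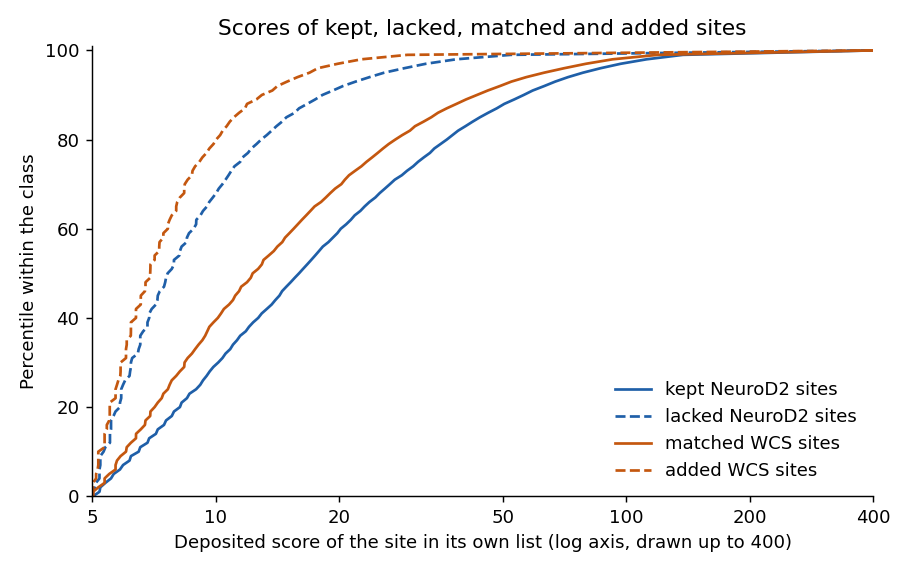
Percentile within each class (vertical axis) against the deposited score of a site in its own list (horizontal log axis) for NeuroD2 sites (blue) and WCS sites (orange) with an overlap (solid) or without one (dashed). Both dashed lines lie to the left: medians are 7.64 for lacked and 6.92 for added sites, against 16.0 for kept and 12.3 for matched sites.

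Added sites were in the other lists less often than matched WCS sites, whose scores were higher. Of the 5860 added sites, 3426 or 58.5% (57.2 to 59.7%) were in the WC list, 1330 or 22.7% in the MyoD list, 1256 or 21.4% in the chimera list and 1829 or 31.2% (30.0 to 32.4%) in no other list. Of the matched sites 90.6% were in the WC list, 29.8% in the MyoD list, 38.4% in the chimera list and 7.20% in none of these. Added sites in the WC list alone were the largest set, with 2183 sites and a median score of 7.72. Those of WCS alone had a median of 6.05, close to the lowest score in the list, 5.03. A score above 20 was reached by 165 added sites, of which 68 were in the chimera list and 55 in the MyoD list. All 165 were in the WC list, as were 99.7% of the 5023 matched WCS sites above that score.

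All 4 proteins precipitated with the MyoD antibodies, and not NeuroD2, held 526 of the added sites, 8.98% (8.26 to 9.74%). All 4 also held 21.2% of the matched WCS sites (20.6 to 21.8%). The highest of the 526 added sites was on chromosome 2 from 160992256 to 160992790. Its scores were 57.5 for WCS, 28.0 for WC, 18.6 for the chimera and 35.7 for MyoD. Next came chromosome 13 from 97429949 to 97430466, with 49.5, 34.9, 19.3 and 33.8, and chromosome 10 from 20821686 to 20822159, with 47.6, 18.2, 8.75 and 9.97. NeuroD2 sites lay 18313, 10255 and 106152 bases away.

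Membership of the MyoD list, which went with being kept among NeuroD2 sites, went with little difference among WCS sites of like score. In all, 78.8% of the WCS sites in the MyoD list were matched (77.8 to 79.8%) and 72.0% of the others (71.3 to 72.7%). In bin 1 by WCS score the shares were 48.3% (45.0 to 51.6%) and 47.7% (46.0 to 49.3%), in bin 2 they were 59.9% and 62.4%, and in bin 5 they were 98.0% and 96.8%. For the chimera list the shares matched inside and outside it were 48.5% and 47.7% in bin 1, and 98.2% and 95.6% in bin 5. Membership of the WC list did go with a match: 60.9% against 34.2% in bin 1.

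The 5 added sites of highest score were also in the WC list, which held every one of the 100 WCS sites of highest score. They were led by chromosome 9 from 3003308 to 3003690, infinite for WCS and WC, which lies 118 bases from a NeuroD2 site in the crowded window at the start of that chromosome. Chromosome 9 from 3011344 to 3011986, with a score of 106, is in the same window. Chromosome X from 166649918 to 166650296 was infinite for both mutants and lay 203023 bases from the nearest NeuroD2 site. Chromosome 4 from 134150634 to 134151005 had scores of 163 for WCS and 180.1 for WC, 1723 bases from a NeuroD2 site. Chromosome 17 from 71312855 to 71313269 had 93.5 and 93.6, with the nearest NeuroD2 site 74887 bases away.

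Outside dense windows the next were chromosome 19 from 10015293 to 10015879, with 67.6 for WCS, 58.9 for WC and 14.4 for the chimera, and chromosome 16 from 93789283 to 93789649, with 58.8 for WCS and 73.5 for WC. The sites of WCS alone had much lower scores. The highest were 19.8 for 23393417 to 23393801 and 14.0 for 110741906 to 110742422, both of chromosome 9, and 13.9 for 181221884 to 181222226 of chromosome 2.

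Distances from added sites to the other list were of the same order as those from lacked sites. The nearest NeuroD2 site was a median of 15631 bases away (quartiles 4470 and 47546), and 607 added sites (10.4%) had one within 1000 bases. Of the added sites 408 lay within 1000 bases of a kept NeuroD2 site and 233 within 1000 bases of a lacked one.

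Overlap was similar along the autosomes and lower on chromosome X. WCS held 53.3% of autosomal NeuroD2 sites, from 48.2% on chromosome 13 (45.3 to 51.2%) to 56.8% on chromosome 5 (54.7 to 58.9%), and 218 of the 570 on X, 38.2% (34.2 to 42.4%). The median NeuroD2 score was 11.0 on X and 10.5 on the autosomes. At the shares that the 5 bins by score had over the whole list, 54.4% of the X sites would have been kept. Outside dense windows the median score was lower on X, at 9.52 against 10.4. There 42.7% were kept on X (37.9 to 47.7%) and 52.8% on the autosomes, against 50.1% and 52.9% at the shares of the bins. Among WCS sites 58.0% on X were matched (52.7 to 63.1%) and 74.2% on the autosomes. The lowest autosome was chromosome 14 with 65.8% (62.4 to 69.1%), and the highest was chromosome 11 with 77.3%. The MyoD and chimera lists have 0 sites on X, so WC is the one further list for that chromosome.

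**Figure D4:**
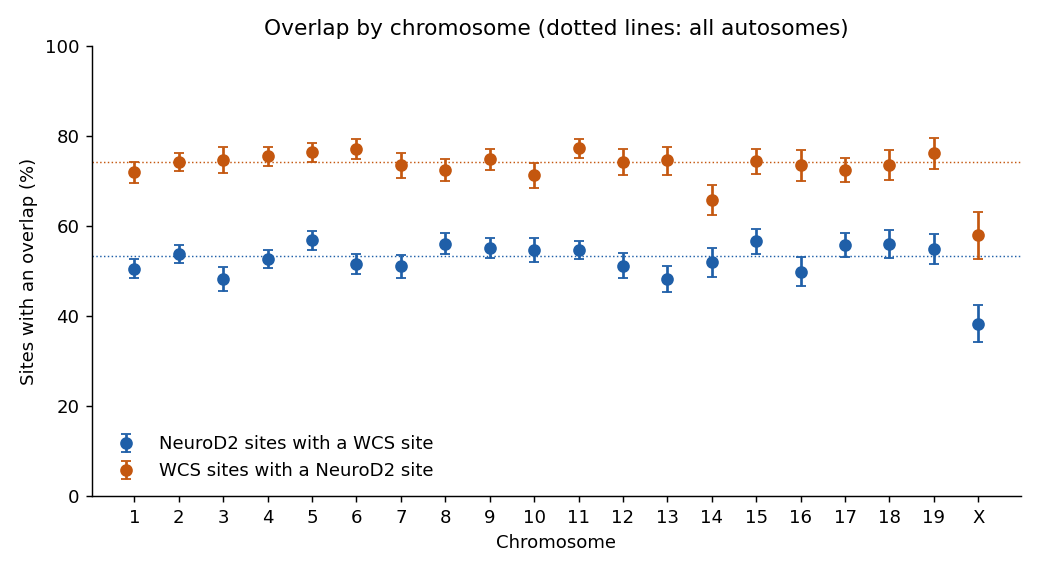
Share of NeuroD2 sites with a WCS site (blue) and of WCS sites with a NeuroD2 site (orange), in percent, for each chromosome, with exact 95% binomial intervals; dotted lines give the share over all autosomes. Both shares are lowest on X, at 38.2% and 58.0%, and the share matched is lowest among autosomes on chromosome 14, at 65.8%.

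The 352 lacked sites on X included a stretch of consecutive lacked sites, one of the 3 longest in the NeuroD2 list. It ran from 51082083 to 53862834, over 2.78 Mb, and held 54 NeuroD2 sites with scores of 5.07 to 64.8, of which 0 were in the WC list. The MyoD and chimera lists have 0 sites anywhere on X. WCS had 2 sites in the whole stretch and WC 1. The longest run had 68 sites between 89682974 and 90207223 on chromosome 1, with a median score of 6.26, of which 5 were in the chimera list and 0 in the WC or MyoD lists. The next after X had 37 sites within 64.9 kb, on chromosome 1 from 173445114 to 173510037, where none of the other 4 lists had a site. These runs were chosen after their lengths were seen.

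Both clusters on chromosome 1 also led the comparison by windows of 100 kb. NeuroD2 exceeded WCS most on chromosome 1 from 90100001 to 90200000, with 62 sites against 0, on chromosome 1 from 173400001 to 173500000, with 38 against 3, and on chromosome 3 from 25400001 to 25500000, with 32 against 0. WC had 1, 3 and 1 sites there, the chimera 5, 1 and 3, and MyoD 2 in each. Scores were low, with NeuroD2 medians of 6.26, 7.40 and 7.47. In each of the 3 windows, every list made with the MyoD antibodies had at most 5 sites.

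Windows with more WCS than NeuroD2 sites were fewer and their excess smaller, and the WCS list is the shorter. The largest were chromosome 10 from 77200001 to 77300000, with 18 WCS and 4 NeuroD2 sites, chromosome 14 from 44000001 to 44100000, with 15 and 1, and chromosome 14 from 43900001 to 44000000, with 19 and 9. Another, chromosome 8 from 19800001 to 19900000, with 33 and 23, tied with the last. On chromosome 10 the other lists of the MyoD antibodies were also rich, with 17 WC, 15 chimera and 11 MyoD sites. On chromosome 14 the WC list had 13 and 12 sites, and the chimera 2 and 3.

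Of the 12042 windows with a NeuroD2 site, 9005 also had a WCS site and 3037 had none. A further 1237 windows had a WCS site and no NeuroD2 site. NeuroD2, with 31458 sites against 22462, had more sites in 7152 windows, WCS in 2548, and the numbers were equal in 3579. The share of NeuroD2 sites kept rose with company, from 47.7% (46.3 to 49.1%) of those alone in their window to 57.2% (56.0 to 58.5%) of those with 6 to 9 NeuroD2 sites in the window. It was 53.1% where there were 10 or more. The median score moved with these shares, at 9.52 for sites alone, 11.2 for those with 6 to 9 in the window and 10.7 for those with 10 or more.

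**Figure D5:**
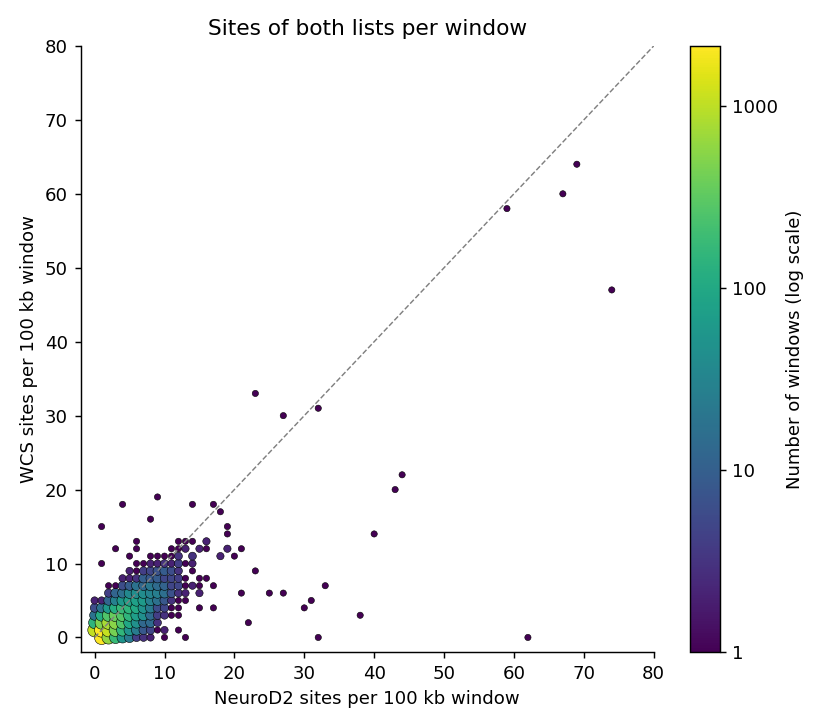
Number of WCS sites (vertical axis) against number of NeuroD2 sites (horizontal axis) in each window of 100 kb with a site of either list; colour and size give the number of windows on a log scale, and the dashed line marks equal numbers. More windows lie below the line (7152) than above it (2548), and the window with 62 NeuroD2 sites and 0 WCS sites lies far to the right on the axis.

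In some crowded windows WCS kept most of the NeuroD2 sites. The window with the most NeuroD2 sites, chromosome 8 from 19900001 to 20000000, had 74 NeuroD2 and 47 WCS sites, an excess of 27 and the next largest after the 3 windows above, yet 68 of the 74 were kept. Chromosome 8 from 19700001 to 19800000 had 69 and 64, with 51 kept, and chromosome 5 from 14900001 to 15000000 had 67 and 60, also with 51 kept. The matched WCS sites of these windows numbered 39, 43 and 42, fewer than the kept NeuroD2 sites. A WCS site that overlaps several NeuroD2 sites, at most 7 over the whole list, makes each of them count as kept. In all 3 windows the median score of the WCS sites was above that of the NeuroD2 sites, at 30.3 against 20.6, 18.5 against 9.31 and 40.2 against 17.5. Scores of different lists have no common scale, since depth is unknown.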

How the data were processed

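The data were 5 deposited lists of binding sites, 1 per transduced group, each serving both libraries of its group. The submitters' processing notes name build mm9, BWA 0.7.5 and CASAVA 1.8.2. How peaks were called, filtered or pooled is not given in the sources used here. The authors' deposited score of each site has no named unit, lies above 5 and is infinite for some sites. It was used as a rank within a list. Starts were read as 0-based, as in BED, and are printed 1-based.

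Overlaps of at least 1 base, distances, windows of 100 kb and exact binomial intervals were computed with Python 3.11.15, numpy 2.4.6, pandas 2.3.3 and scipy 1.17.1, and drawn with matplotlib 3.10.9. The overlap step was tested on simulated data. Equal scores were ordered by width. Named sites are those of highest score in each class, inside and outside dense windows and in the 3 largest sets by membership, with the windows of largest difference and the chromosomes of extreme share. The groups, classes and rules were chosen with earlier results of these data known. No genome or annotation of mm9 was used here, so no gene, E-box or sequence is given, and the planned results on these were not run.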

Additional observations from a re-analysis of the deposited data

How the results depend on the processing

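The shares were recomputed under 8 alternatives. The share of NeuroD2 sites held by WCS was 48.8% with site centres at most 100 bases apart, 52.2% with the 50% of each list of highest score, 63.4% with the NeuroD2 list shortened to the WCS length, and 54.1% with sites within 500 bases joined. The share of WCS sites on a NeuroD2 site was 68.4% with the rule on centres, 72.8% with the 50% of highest score and 63.4% with the shortened NeuroD2 list, which holds fewer sites to match. Under the other alternatives (an overlap of 50% of the shorter site, autosomes only, widths from that of the shortest MyoD site to 2000 bases, dense windows removed and, for WCS sites only, joined sites) both shares stayed within their intervals. Lacked sites in no other list ranged from 66.9% to 74.6%, and added sites also in the WC list from 57.7% to 63.8%. In the 4 alternatives run by score, the share of NeuroD2 sites held stayed between 23.3% and 25.7% in the lowest of 5 bins and between 78.7% and 87.5% in the highest. The removal of dense windows for the top 50 and top 100 sites was chosen after seeing the data. No paired analysis was possible because each group has 1 list, and for the same reason no library could be left out. Depth is unknown, so a lacked site may be one that fell under the threshold of the WCS list.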

Other observations

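WCS added sites in some stretches where NeuroD2 had few or none. The longest run of consecutive added sites lay on chromosome 14 from 3034604 to 8098252, over 5.06 Mb, with 21 WCS sites of scores between 5.18 and 15.7. NeuroD2 had 0 sites in that stretch, WC 24, the chimera 5 and MyoD 6, and 13 of the 21 WCS sites overlapped a WC site. Runs of 16 added sites each followed on chromosome 13 from 65259445 to 66529273, with 4 NeuroD2 and 14 WC sites, and on chromosome 4 from 146142348 to 146774396, with 5 NeuroD2 and 13 WC sites. Their median scores were 6.57 and 7.53. Windows with 3 or more WCS sites and no NeuroD2 site numbered 26, against 267 with 3 or more NeuroD2 sites and no WCS site. The WCS list is the shorter, with 22462 sites against 31458, and these counts are not matched for length.

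The longest runs of matched WCS sites lay on autosomes. They had 33 sites on chromosome 4 from 128076192 to 129028297, over 0.952 Mb, 32 between 108091304 and 115591078 on chromosome 3 and 32 between 141372172 and 144580513 on chromosome 4. The first stretch had 45 NeuroD2, 31 WC, 13 chimera and 18 MyoD sites, and 0 of its WCS sites were in a dense window. All runs were chosen after their lengths were seen.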
